A study of Mus musculus with 21 samples.

Results

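Microglia are the resident macrophages of the brain, and 10 genes that they are known to express were followed through RNA-seq of the mouse midbrain: Aif1, Cx3cr1, P2ry12, Tmem119, Csf1r, Trem2, Tyrobp, C1qa, Itgam and Cd68. They were chosen by name from the 33622 genes listed in both deposited tables, and all 10 passed the filter on low counts in both experiments. The study asked whether irisin, a peptide hormone cleaved from the muscle protein Fndc5, protects the nigra from the dopaminergic neurotoxin MPTP. It used 21 male C57BL/6 mice of 6 weeks in 7 groups of 3, each mouse giving 1 library.

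The study ran 2 experiments, called here the pre-treatment arm (9 mice) and the delayed arm (12 mice). In the first, control mice received ddH2O for 10 days, MPTP mice received ddH2O for 5 days and then MPTP at 30 mg/kg for 5 days, and irisin pre-treated mice received irisin at 200 µg/kg for 5 days and then the same course of MPTP. In the second, control mice again received ddH2O for 10 days, MPTP mice received MPTP for 5 days and then ddH2O for 5 days, irisin mice received ddH2O for 5 days and then irisin for 5 days, and delayed irisin mice received MPTP for 5 days and then irisin for 5 days. Doses were the same in both arms and were given by intraperitoneal injection once a day. The brains were perfused, and the nigral tissue was dissected by hand, so each library mixes neurons, glia and vessels. In such bulk tissue, fewer microglia and less RNA per microglial cell cannot be told apart.

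Microglia survey the tissue with motile processes, remove debris and synapses, and respond to injury by changing shape and expression. Csf1r binds the growth factors Csf1 and Il34 that keep microglia alive. P2ry12 senses ADP released by damaged cells, and Cx3cr1 binds the neuronal chemokine Cx3cl1. Trem2 recognises lipids and apoptotic cells and signals through the adaptor Tyrobp. C1qa is a chain of the complement starter C1q, and Itgam is the alpha chain of complement receptor CR3 (CD11b). Aif1 encodes the calcium-binding protein Iba1, Cd68 is a glycoprotein of phagocyte lysosomes, and Tmem119 is a membrane protein used to tell microglia from other macrophages. Loss of P2ry12 and Tmem119 and gain of Trem2, Tyrobp and Cd68 are commonly read as signs of a reactive state.

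Total counts per mouse were 66.7 to 75.6 M (1 M is 1000000) in the pre-treatment arm and 48.8 to 77.2 M in the delayed arm. At this depth the least counted member was Aif1, with 123 to 260 counts per mouse, and the most counted was Csf1r, with 3203 to 6278. The 2 tables were counted and normalized separately, so levels set side by side across the experiments are not a test. Th, the rate-limiting enzyme of dopamine synthesis, was present in every mouse, at 21.3 to 55.1 counts per 1000000 (CPM) in the pre-treatment arm and 31.0 to 63.3 CPM in the delayed arm. Transthyretin (Ttr), a choroid plexus product, was at 1539 CPM in MPTP replicate 2 of the pre-treatment arm, beside 2.80 to 17.2 CPM in the 8 other mice, and ranged from 24.2 to 1550 CPM over the mice of the delayed arm. The haemoglobin gene Hba-a1, a sign of red blood cells, was at 151, 224 and 195 CPM in control mice, 220, 214 and 154 CPM in MPTP mice and 63.2, 124 and 127 CPM in irisin pre-treated mice, so the last group lay below both others. The part of blood and choroid plexus in the members' values was not tested, and values without MPTP replicate 2 are given beside the members that stood furthest from 0 in irisin pre-treatment against MPTP.

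Itgam shares most of its exons with a neighbouring gene model whose counts ran opposite to its own, so the sequence is given before the values. Itgam lies at chr7:128062640-128118491 on the + strand of GRCm38. In the GENCODE M21 annotation of that build, 29 of the 30 exons of Itgam-201 overlap exons of Gm49368-201, a gene model on the same strand. They share 3450 bases, which is 73.7% of Itgam-201 and 71.8% of Gm49368-201. Both transcripts run through the same second to last exon, at chr7:128116736-128116846, and then part, as the bases around the junction show. Lower case marks the last 60 bases of the shared exon and capitals mark the first 60 coding bases of each transcript's own last exon.
Itgam-201: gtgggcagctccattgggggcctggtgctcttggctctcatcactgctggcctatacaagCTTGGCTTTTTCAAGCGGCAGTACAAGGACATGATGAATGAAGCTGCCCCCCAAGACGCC
Gm49368-201: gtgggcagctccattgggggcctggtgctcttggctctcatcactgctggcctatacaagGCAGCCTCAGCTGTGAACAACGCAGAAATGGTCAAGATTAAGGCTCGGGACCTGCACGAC
The own last exon lies at chr7:128117306-128118491 in Itgam-201 and at chr7:128126808-128128160 in Gm49368-201. A read that falls within the shared exons does not tell the 2 gene models apart, and how the authors assigned such reads is not given in the sources used here.

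Per unit of gene length, in FPKM (fragments per kilobase of gene and per unit of depth), C1qa was the most abundant member in both experiments. Its level was 22.3 FPKM ± 2.75 (SD, n = 9) in the pre-treatment arm and 35.6 FPKM ± 3.14 (SD, n = 12) in the delayed arm, and its range did not overlap that of the next member in either. Tyrobp followed at 9.88 FPKM ± 1.70 and 13.6 FPKM ± 1.54, and Csf1r at 8.07 FPKM ± 0.541 and 11.7 FPKM ± 0.443, with ranges that overlapped. P2ry12 stood above Tmem119 in the pre-treatment arm (6.87 FPKM ± 0.872 against 4.82 FPKM ± 0.558) and below it in the delayed arm (5.47 FPKM ± 0.445 against 7.18 FPKM ± 0.517), with no overlap between the 2 genes in either. Cd68 came next at 3.61 FPKM ± 0.510 and 3.79 FPKM ± 0.653. Itgam, Aif1, Trem2 and Cx3cr1 had the lowest means, between 1.34 and 2.31 FPKM, and each neighbour in that order overlapped the next.

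**Figure D1:**
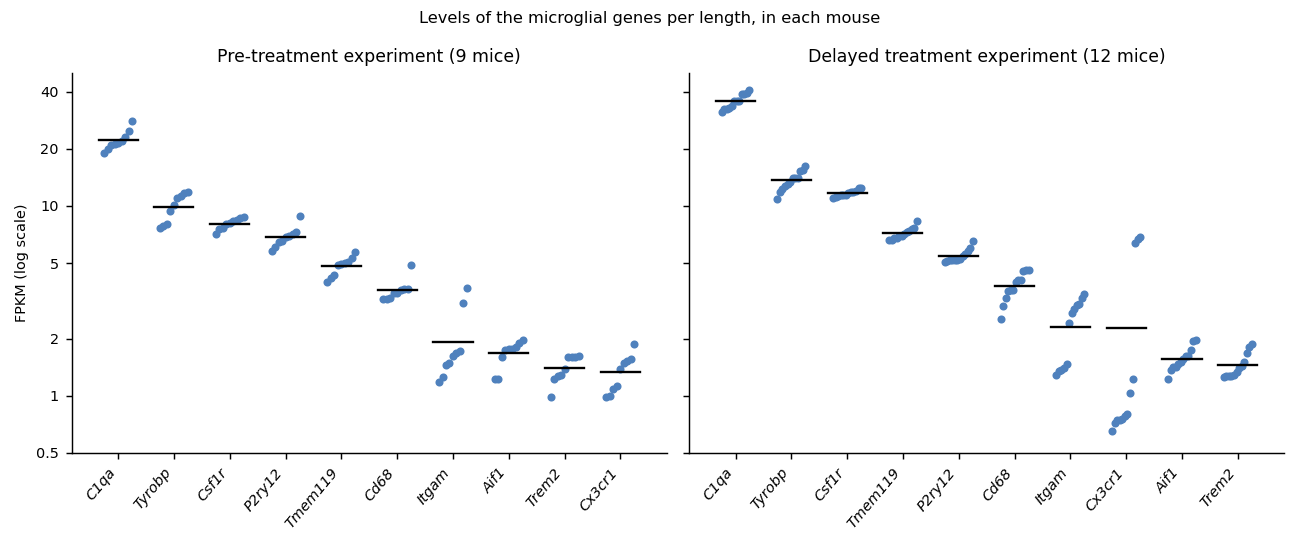
Level of each microglial gene per unit of length (FPKM, log scale) in every mouse of the pre-treatment arm (left, 9 mice) and the delayed arm (right, 12 mice), ordered by mean. Points are mice, sorted by value within a gene, and lines are means over all mice of the experiment. C1qa lies above all other members, and Cx3cr1 splits into 9 mice at 0.649 to 1.23 FPKM and 3 mice up to 6.83 FPKM in the delayed arm.

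The spread of the members between mice of one group had a median near that of other genes in their range of levels. On the log2 CPM scale the pooled within-group SD had a median of 0.18 over the 10 members in each experiment, beside 0.17 and 0.16 for all tested genes in the members' range of levels. Csf1r varied least, with an SD of 0.11 and 0.06. Itgam varied most in the pre-treatment arm (0.39), and Cx3cr1 (1.54) and Itgam (0.46) varied most in the delayed arm. Next came Trem2 (0.26) and Tyrobp (0.23) in the pre-treatment arm, and Cd68 (0.26) and Trem2 (0.21) in the delayed arm.

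MPTP mice were set against control mice in each experiment, irisin pre-treated mice and delayed irisin mice against MPTP mice of their own experiment, and irisin mice against control mice. In the delayed arm, the effect of irisin with MPTP was also set against its effect without MPTP (the interaction). With edgeR's quasi-likelihood test and p-values adjusted (Benjamini-Hochberg) over all tested genes, 0 of 10 members passed an adjusted p of 0.05 in any of the 6 comparisons. In the test for any difference among the groups of an arm, 0 of 10 passed as well, beside 0.0928% and 0.1% of all tested genes. Few genes of any kind passed: 0.0221% of 22641 tested genes for MPTP against control and 0.0707% for irisin pre-treatment against MPTP in the pre-treatment arm. Of 21922 genes tested in the delayed arm 0.132% passed for MPTP against control, 0.109% for irisin against control, 0.00456% for delayed irisin against MPTP and 0.0411% for the interaction. At an unadjusted p under 0.05, members numbered 2, 1, 0, 0, 1 and 1 of 10 in these comparisons, in the order given, beside 6.03%, 6.22%, 8.33%, 8.97%, 3.9% and 5.57% of all tested genes. In the test for any difference they numbered 2 and 1, beside 6.7% and 6.83%. All of these member values belonged to Cx3cr1 and Itgam. By DESeq2, Cx3cr1 passed for MPTP against control in the pre-treatment arm (adjusted p = 0.025), and Itgam and Cx3cr1 passed its test for any difference there. DESeq2 called 91 and 292 genes of all kinds in these 2 tests, where edgeR called 5 and 21.

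**Figure D2:**
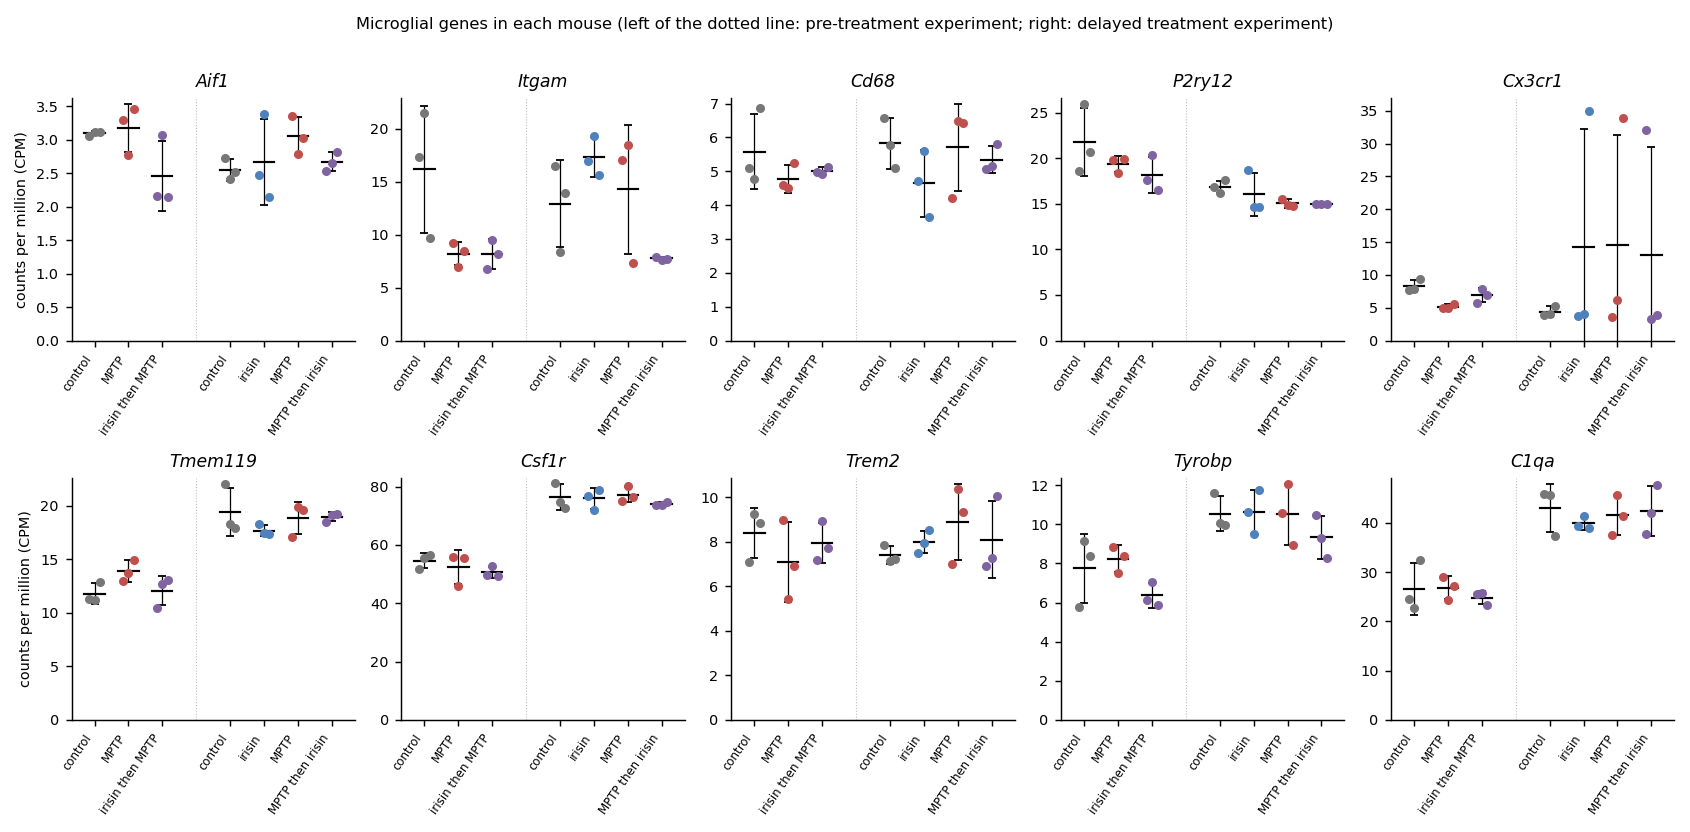
Counts per 1000000 (CPM) of the 10 microglial genes in each mouse. Points are mice, horizontal lines are group means and error bars are ± SD (n = 3, cut at 0 on the axis), and each panel has its own axis from 0. Groups overlap for most genes, while Itgam takes a high or a low level from mouse to mouse and Cx3cr1 stands at 32.1 to 35 CPM in 3 mice of the delayed arm.

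Csf1r, the receptor on which microglial survival depends, was the most precisely measured member. In the pre-treatment arm it was at 51.7, 55.7 and 56.4 CPM in control mice, 56.0, 45.9 and 55.6 CPM in MPTP mice, and 49.6, 52.9 and 49.4 CPM in irisin pre-treated mice. Csf1r in the delayed arm was at 81.3, 74.7 and 72.8 CPM in control mice, 75.2, 80.1 and 76.4 CPM in MPTP mice, 76.9, 72.1 and 78.9 CPM in irisin mice, and 73.6, 73.7 and 74.8 CPM in delayed irisin mice. Only the delayed irisin mice did not overlap the group they were compared with, all lying below the lowest MPTP mouse. The log2 fold change of that comparison was -0.06 ± 0.06 (SE), with a 95% interval of -0.19 to 0.07 (adjusted p = 0.9995 by edgeR). For MPTP against control the intervals were -0.26 to 0.15 in the pre-treatment arm and -0.11 to 0.15 in the delayed arm, so a fold of more than 1.11 in either direction lay outside the latter, whose bounds were 0.925 and 1.11 as folds.

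P2ry12 and Tmem119, which mark microglia at rest, did not change past the test. P2ry12 was at 18.6, 26.0 and 20.7 CPM in control mice, 19.9, 18.4 and 19.9 CPM in MPTP mice, and 17.6, 20.3 and 16.5 CPM in irisin pre-treated mice of the pre-treatment arm. In the delayed arm P2ry12 was at 16.8, 16.2 and 17.6 CPM in control mice and at 15.6, 14.8 and 14.7 CPM in MPTP mice, which did not overlap. The log2 fold changes for MPTP against control were -0.17 ± 0.13 (SE) and -0.16 ± 0.10, with intervals of -0.47 to 0.14 and -0.39 to 0.06 and adjusted p of 0.912 and 0.72 by edgeR. Irisin mice had 18.8, 14.6 and 14.7 CPM and delayed irisin mice had 15.01, 14.93 and 15 CPM. P2ry12 lies inside Med12l, a gene on the opposite strand. The use of strand in counting is not given, and whether exons of the 2 genes overlap was not examined.

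Tmem119 was at 11.3, 11.2 and 12.9 CPM in control mice, 12.97, 13.7 and 14.97 CPM in MPTP mice, and 10.5, 12.7 and 13.1 CPM in irisin pre-treated mice of the pre-treatment arm. Each MPTP mouse lay above every control mouse, by a log2 fold change of 0.23 ± 0.12 (SE), with an interval of -0.03 to 0.50 and an adjusted p of 0.838 by edgeR. Nothing of that size was seen for MPTP in the delayed arm, where control mice had 22.1, 18.3 and 18.0 CPM and MPTP mice 17.1, 19.9 and 19.6 CPM (log2 fold change -0.04, interval -0.26 to 0.17). Irisin mice had 18.3, 17.5 and 17.4 CPM and delayed irisin mice had 18.5, 19.2 and 19.3 CPM there.

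Trem2 and its adaptor Tyrobp were not changed past the test either. Trem2 was at 7.12, 9.26 and 8.83 CPM in control mice, 8.98, 5.42 and 6.93 CPM in MPTP mice and 7.17, 8.92 and 7.72 CPM in irisin pre-treated mice. For Trem2, the delayed arm had 7.87, 7.14 and 7.23 CPM in control mice, 7.51, 7.95 and 8.52 CPM in irisin mice, 7.02, 10.4 and 9.32 CPM in MPTP mice, and 6.93, 7.26 and 10.1 CPM in delayed irisin mice. Every group overlapped the one it was compared with. The log2 fold change for MPTP against control was -0.24 ± 0.20 (SE, interval -0.69 to 0.20) in the pre-treatment arm and 0.27 ± 0.17 (interval -0.11 to 0.64) in the delayed arm.

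Tyrobp was at 5.77, 9.13 and 8.37 CPM in control mice, 8.85, 7.49 and 8.36 CPM in MPTP mice and 6.16, 7.07 and 5.87 CPM in irisin pre-treated mice. The irisin pre-treated mice all lay below the MPTP mice, while the control mice spanned both groups. The log2 fold change of irisin pre-treatment against MPTP was -0.37 ± 0.18 (SE), with an interval of -0.78 to 0.03 and an adjusted p of 0.84 by edgeR. Without MPTP replicate 2 it was -0.44 ± 0.20. Over all 12 mice of the delayed arm Tyrobp lay between 8.27 and 12.04 CPM, and delayed irisin against MPTP gave -0.17 ± 0.14 (interval -0.48 to 0.14).

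C1qa, the most abundant member per length, overlapped between groups in all comparisons. It was at 24.5, 22.8 and 32.5 CPM in control mice, 28.9, 24.4 and 27.2 CPM in MPTP mice and 25.5, 25.8 and 23.3 CPM in irisin pre-treated mice. The delayed arm had 45.9, 45.6 and 37.3 CPM in control mice, 39.3, 41.3 and 39.0 CPM in irisin mice, 37.6, 45.6 and 41.4 CPM in MPTP mice, and 37.6, 41.9 and 47.7 CPM in delayed irisin mice. Its log2 fold changes ran from -0.11 to 0.03 over the 5 comparisons of groups.

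The Iba1 gene Aif1, whose protein is the usual stain for microglia, was the lowest member in counts. In the pre-treatment arm it was at 3.06, 3.11 and 3.11 CPM in control mice, 3.30, 2.77 and 3.46 CPM in MPTP mice, and 2.17, 3.07 and 2.14 CPM in irisin pre-treated mice. For irisin pre-treatment against MPTP its log2 fold change was -0.37 ± 0.19 (SE), with an interval of -0.79 to 0.05 and an adjusted p of 0.867 by edgeR, and it was -0.46 ± 0.20 without MPTP replicate 2. Delayed arm values were 2.73, 2.41 and 2.52 CPM in control mice, 2.47, 3.38 and 2.15 CPM in irisin mice, 3.36, 2.78 and 3.03 CPM in MPTP mice, and 2.54, 2.65 and 2.82 CPM in delayed irisin mice. The MPTP mice lay above the control mice without overlap there, by a log2 fold change of 0.26 ± 0.18 (interval -0.15 to 0.66, adjusted p = 0.768 by edgeR).

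Cd68, the lysosomal protein that increases in phagocytic microglia, was at 5.10, 4.78 and 6.86 CPM in control mice, 4.59, 4.50 and 5.25 CPM in MPTP mice, and 4.99, 4.91 and 5.14 CPM in irisin pre-treated mice. Its delayed arm values were 6.58, 5.78 and 5.10 CPM in control mice, 4.70, 5.61 and 3.64 CPM in irisin mice, 4.22, 6.48 and 6.42 CPM in MPTP mice, and 5.07, 5.16 and 5.81 CPM in delayed irisin mice. All compared groups overlapped. The largest of its log2 fold changes was -0.32 ± 0.20 (SE) for irisin against control, with an interval of -0.77 to 0.12.

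Cx3cr1, the receptor for neuronal Cx3cl1, had the smallest unadjusted p of the members. In the pre-treatment arm it was at 7.74, 7.82 and 9.42 CPM in control mice, 4.98, 4.97 and 5.57 CPM in MPTP mice, and 5.79, 7.91 and 6.99 CPM in irisin pre-treated mice. The MPTP mice lay below all control mice and below all irisin pre-treated mice. MPTP against control gave a log2 fold change of -0.69 ± 0.15 (SE), a fold of 0.621 with an interval of 0.491 to 0.786, and an unadjusted p of 0.00139 (adjusted p = 0.579) by edgeR. Irisin pre-treatment against MPTP gave 0.41 ± 0.15, a fold of 1.33 with an interval of 1.05 to 1.69, and an unadjusted p of 0.0218 (adjusted p = 0.699) by edgeR. Leaving out MPTP replicate 2 gave -0.66 ± 0.17 and 0.38 ± 0.17 for the same comparisons (unadjusted p of 0.00579 and 0.0588). The 2 comparisons share the MPTP mice.

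Cx3cr1 of the delayed arm lay on 2 levels that crossed the groups. Control mice had 3.85, 4.002 and 5.30 CPM, irisin mice 3.80, 4.07 and 35 CPM, MPTP mice 3.64, 6.19 and 33.9 CPM, and delayed irisin mice 32.1, 3.32 and 3.85 CPM. One mouse of each treated group was thus at 32.1 CPM or more, and the other 9 mice were at 6.19 CPM or less. In the same 3 mice, Csf1r was at 78.9, 76.4 and 73.6 CPM and P2ry12 at 14.69, 14.74 and 15.01 CPM, which is within the range of the other mice. Tmem119, Tyrobp and C1qa also lay within it. Irisin replicate 3 had the lowest Aif1 (2.15 CPM) and Cd68 (3.64 CPM) of the 12 mice. MPTP replicate 3 had the lowest Itgam (7.28 CPM) and delayed irisin replicate 1 the lowest Trem2 (6.93 CPM). The fitted log2 fold changes of Cx3cr1 rested on these 3 mice. For MPTP against control the value was 1.73 (interval -0.79 to 4.25) with all mice and 0.16 without MPTP replicate 3. For irisin against control it was 1.70 (interval -0.81 to 4.22) with all mice and -0.16 without irisin replicate 3. Delayed irisin against MPTP gave -0.15 (interval -2.58 to 2.27) with all mice, 1.42 without MPTP replicate 3 and -2.02 without delayed irisin replicate 1.

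The ligand of this receptor had a low value in a mouse of the delayed arm that was not among those with high Cx3cr1. Cx3cl1 was at 31.8 CPM in irisin replicate 1, beside 247 to 317 CPM in the MPTP and 255 and 274 CPM in the other irisin mice, and control mice had 276, 268 and 288 CPM. Cx3cr1 itself was at 3.80 CPM in that mouse. The row of Cx3cr1 in the tables spans 167 kb of chromosome 9, from 119901616 to 120068296, because transcript Cx3cr1-202 has an exon of 12 bases that lies 148 kb from its next exon. Of 8 other genes within this span, 4 had 1 CPM or more. Over the 12 mice they ranged from 59.6 to 75.9 CPM (Wdr48), from 31.7 to 40.5 CPM (Gorasp1), from 2.03 to 4.65 CPM (Ttc21a) and from 5.45 to 16.7 CPM (Csrnp1), so Cx3cr1 had the widest range of the 5, at 10.6-fold. The part of this overlap in the 2 levels was not tested.

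Itgam, the CD11b chain, also lay on 2 levels. In the pre-treatment arm it was at 17.3, 21.5 and 9.69 CPM in control mice, 9.18, 6.99 and 8.48 CPM in MPTP mice, and 6.76, 9.54 and 8.22 CPM in irisin pre-treated mice. Itgam in the delayed arm was at 16.5, 8.41 and 13.9 CPM in control mice, 17.0, 19.4 and 15.7 CPM in irisin mice, 17.1, 18.5 and 7.28 CPM in MPTP mice, and 7.86, 7.65 and 7.74 CPM in delayed irisin mice. High and low mice stood side by side in the control groups of both experiments and among the MPTP mice of the delayed one.

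Gm49368, which shares the exons shown above, had the opposite pattern. It had a count of 0 in control replicates 1 and 2 of the pre-treatment arm and in 6 mice of the delayed arm, and Itgam was at 13.9 to 21.5 CPM in these 8 mice. The 7 other mice of the pre-treatment arm had 5.70 to 10.1 CPM of Gm49368 and 6.76 to 9.69 CPM of Itgam. Of the 6 other mice of the delayed arm, irisin replicate 3 had 1.52 CPM of Gm49368 and 15.7 CPM of Itgam, and the rest had 9.63 to 10.4 CPM of Gm49368 and 7.28 to 8.41 CPM of Itgam. With the counts of the 2 gene models joined, the values ran from 15.2 to 21.5 CPM and from 13.9 to 19.4 CPM, a range of 1.41-fold and 1.39-fold, beside 3.17-fold and 2.66-fold for Itgam alone.

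**Figure D3:**
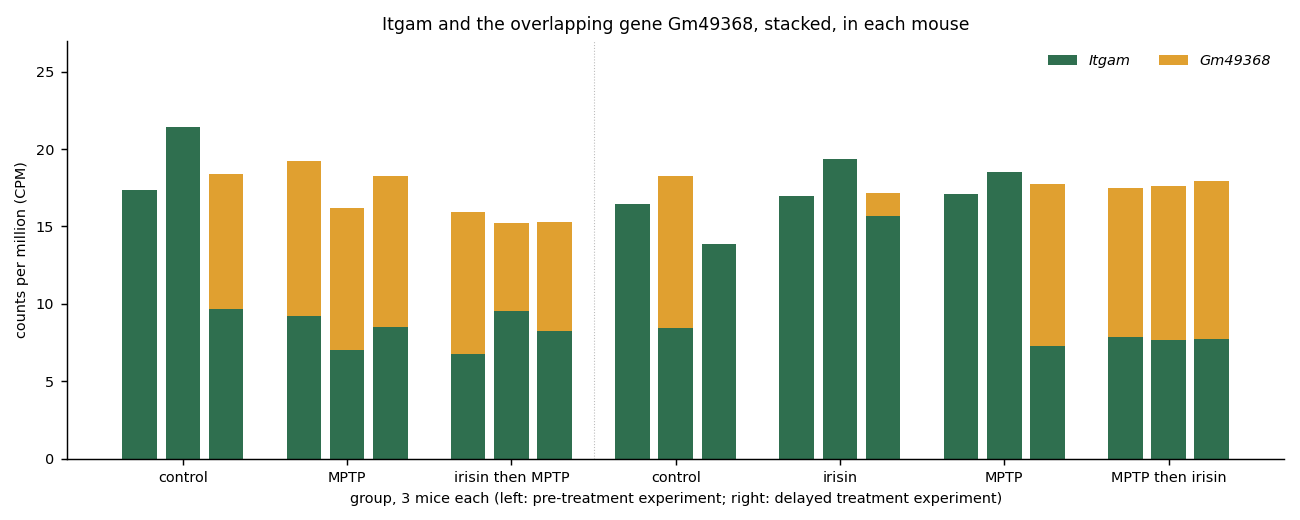
CPM of Itgam (lower part of each bar) and of the overlapping gene model Gm49368 (upper part) in each of the 21 mice, with the mice of a group side by side in replicate order. In 8 mice the bar is Itgam alone, in the others it is split, and the full height of the bar stays between 13.9 and 21.5 CPM.

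Itgam was compared between groups alone and with the counts of Gm49368 joined to it. Alone, Itgam gave a log2 fold change of -0.97 ± 0.27 (SE) for MPTP against control in the pre-treatment arm (unadjusted p of 0.00603, adjusted p = 0.786 by edgeR). For delayed irisin against MPTP it gave -0.88 ± 0.31 (unadjusted p of 0.0171, adjusted p = 0.9995 by edgeR), and for the interaction -1.31 ± 0.44 (unadjusted p of 0.0132, adjusted p = 0.893 by edgeR). Joined with Gm49368, the same 3 comparisons gave -0.09 ± 0.11 (interval -0.33 to 0.15), -0.01 ± 0.10 (interval -0.23 to 0.22) and -0.15 ± 0.15 (interval -0.47 to 0.17). The joined count for irisin pre-treatment against MPTP was lower by -0.21 ± 0.11 on the log2 scale (interval -0.45 to 0.03, adjusted p = 0.87 by edgeR), where Itgam alone gave -0.01.

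Over the 10 members, the median log2 fold change was -0.11 for MPTP against control and -0.07 for irisin pre-treatment against MPTP in the pre-treatment arm. The delayed arm gave 0.01 for MPTP against control, 0.00 for irisin against control, -0.12 for delayed irisin against MPTP and -0.12 for the interaction, while the median over all tested genes was 0.00 in each comparison. These medians include Itgam and Cx3cr1, and those without them are given in the last paragraph. The 8 members other than Cx3cr1 and Itgam stayed within 0.24, 0.37, 0.27, 0.32, 0.19 and 0.26 of 0 in these comparisons, in the order given. Members of 3 mice against 3 that did not overlap numbered 3 of 10 (Tmem119 higher, Cx3cr1 and Itgam lower) for MPTP against control in the pre-treatment arm, beside 11.6% of all tested genes. They numbered 2 (Cx3cr1 higher, Tyrobp lower) for irisin pre-treatment against MPTP, beside 14.2%, 2 (Aif1 higher, P2ry12 lower) for MPTP against control in the delayed arm, beside 16.2%, 0 for irisin against control, beside 15.1%, and 1 (Csf1r lower) for delayed irisin against MPTP, beside 10.7%. Joined with Gm49368, Itgam overlapped between control mice (17.3 to 21.5 CPM) and MPTP mice (16.2 to 19.3 CPM) of the pre-treatment arm. The irisin pre-treated mice, at 15.2 to 15.9 CPM, then lay below all MPTP mice. With 10 genes, a share of this kind is a description only.

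**Figure D4:**
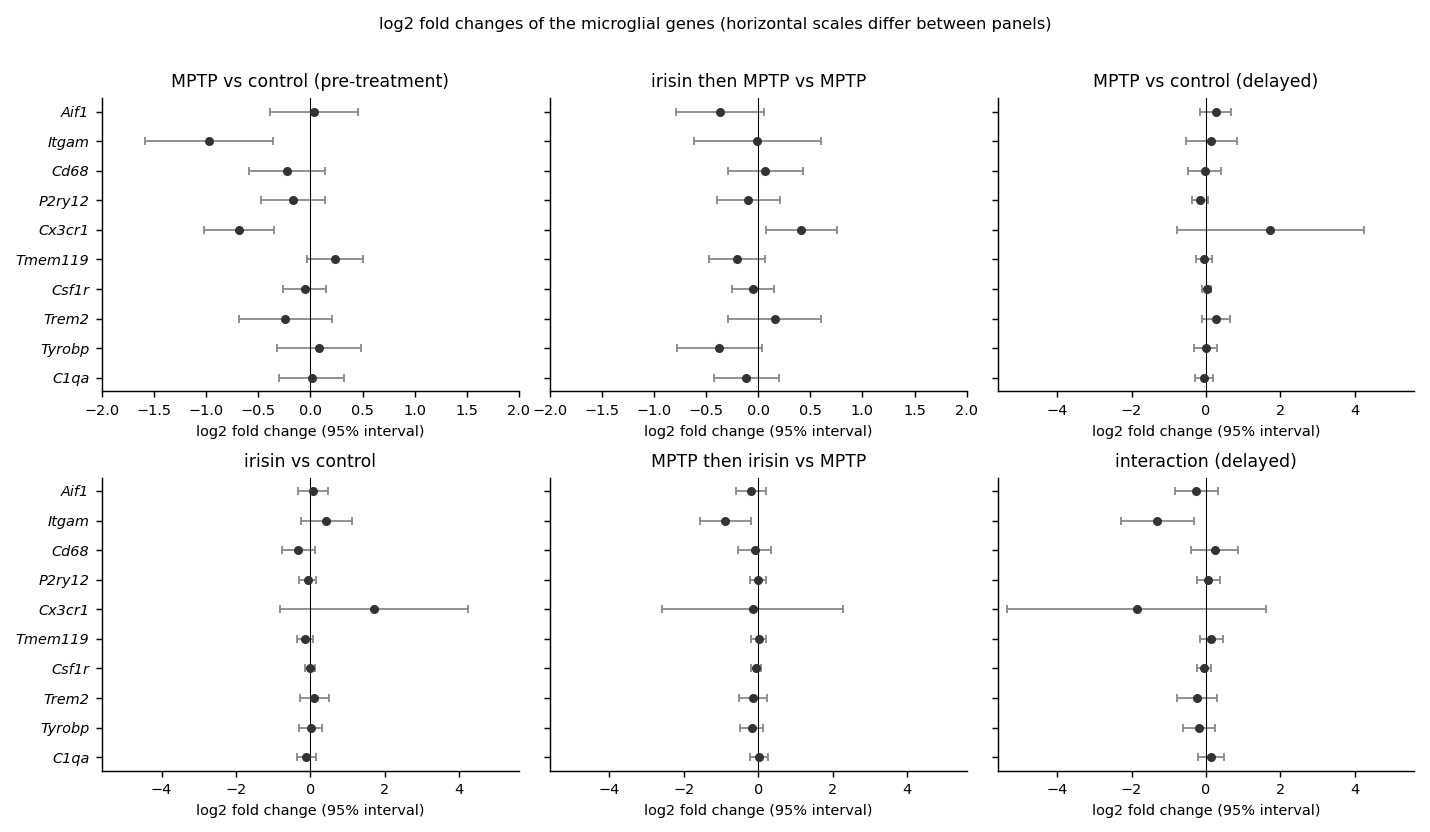
log2 fold changes of the 10 microglial genes with 95% intervals (edgeR) in the 5 comparisons of groups and the interaction. The horizontal scale is wider in the 4 panels of the delayed arm, where the interval of Cx3cr1 runs from -0.79 to 4.25 for MPTP against control, while the interval of Csf1r stays between -0.26 and 0.15 in all 5 comparisons of groups.

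Genes that take part in the same processes were counted in lists of the homeostatic state, the disease-associated state, complement, Trem2 and Tyrobp signalling, receptor ligands, transcription factors, lysosome and phagocytosis, and activation. Of their 81 genes, 77 were tested in the pre-treatment arm and 75 in the delayed arm, and 0 passed an adjusted p of 0.05 in any of the 6 comparisons by edgeR. DESeq2 called 1 (Mertk) for MPTP against control and 2 (Mertk and P2ry13) for irisin pre-treatment against MPTP in the pre-treatment arm, 2 (Cd52 and Sparc) for MPTP against control in the delayed arm, and 0 in the others. In the first 3 of these comparisons it called 91, 169 and 178 genes of all kinds. At an unadjusted p under 0.05 there were 3 genes (3.9% of those tested, 1 higher and 2 lower) for MPTP against control. For irisin pre-treatment against MPTP there were 5 (6.49%, 2 higher and 3 lower). All tested genes gave 6.03% and 6.22% in these 2 comparisons. The 3 lower genes of the latter were in the lists of transcription factors (1) and of lysosome and phagocytosis (2). The delayed arm had 10 (13.3%, of which 8 higher) for MPTP against control and 5 (6.67%, of which 3 higher) for irisin against control. It had 1 (1.33%, higher) for delayed irisin against MPTP and 3 (4.0%, all lower) for the interaction. Beside these stood 8.33%, 8.97%, 3.9% and 5.57% of all tested genes, in the same order. The medians of the log2 fold changes of these genes lay between -0.05 and 0.10.

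Among the homeostatic genes, Mertk, a receptor for the uptake of apoptotic cells, was the one list gene that differed among the 3 groups of the pre-treatment arm past the adjusted threshold (adjusted p = 0.0126 by edgeR, where 0.0928% of all tested genes passed). It was at 19.6, 20.8 and 23.1 CPM in control mice, 30.1, 29.9 and 33.8 CPM in MPTP mice, and 51.0, 42.4 and 46.6 CPM in irisin pre-treated mice, with no overlap between groups. Its log2 fold changes were 0.56 ± 0.10 (SE) for MPTP against control (adjusted p = 0.361 by edgeR) and 0.58 ± 0.10 for irisin pre-treatment against MPTP (adjusted p = 0.142). Mertk lay between 29.5 and 36.9 CPM in all 12 mice of the delayed arm. Which cells of the bulk tissue gave its RNA was not tested. P2ry13, a further ADP receptor, was at 5.05, 6.94 and 6.13 CPM in MPTP mice and 9.72, 9.24 and 8.92 CPM in irisin pre-treated mice, a log2 fold change of 0.62 ± 0.15 (unadjusted p of 0.00262, adjusted p = 0.406 by edgeR).

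Fcrls, a surface receptor typical of microglia, was at 13.3, 11.6 and 10.2 CPM in control mice and 15.7, 22.8 and 15.7 CPM in MPTP mice of the delayed arm, without overlap, for a log2 fold change of 0.63 ± 0.17 (SE, adjusted p = 0.334 by edgeR). Sparc, a matrix protein that vessels also express, was at 1624, 1669 and 1620 CPM in control mice and 1460, 1337 and 1399 CPM in MPTP mice there, a log2 fold change of -0.23 ± 0.04 (adjusted p = 0.0841 by edgeR). The other homeostatic genes had larger p in that comparison. In the pre-treatment arm Fcrls was at 12.99, 13.5 and 14.6 CPM in control mice and 12.5, 12.4 and 15.7 CPM in MPTP mice, which overlapped. Sparc was at 1536, 1514 and 1648 CPM in control mice and 1451, 1437 and 1503 CPM in MPTP mice of that arm, without overlap.

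Of the 14 disease-associated genes, 0 passed in any comparison by edgeR or DESeq2. At an unadjusted p under 0.05 there were 1 and 2 for MPTP against control in the 2 arms, beside 6.03% and 8.33% of all tested genes, and 0 in the other comparisons. The C-type lectin Clec7a was at 0.393, 0.651 and 0.202 CPM in control mice and at 1.16, 1.19 and 0.585 CPM in MPTP mice of the delayed arm, which overlapped (log2 fold change 1.23 ± 0.50, unadjusted p of 0.0321, adjusted p = 0.541 by edgeR). Apoe, a lipid carrier that astrocytes also make, was at 629 to 1073 CPM over the 12 mice there. Of the 10 complement genes, C1qb, the partner chain of C1qa, was at 47.9, 47.0 and 39.9 CPM in control mice, 36.5, 40.1 and 38.1 CPM in MPTP mice, and 36.3, 35.8 and 39.4 CPM in irisin mice of the delayed arm. Its log2 fold changes against control were -0.23 ± 0.09 (SE) and -0.27 ± 0.09 (adjusted p = 0.527 and 0.484 by edgeR), beside -0.05 and -0.11 for C1qa.

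In the Trem2 and Tyrobp signalling list, Inpp5d, a phosphatase that restrains this pathway, was at 9.82, 9.48 and 11.2 CPM in control mice and 12.5, 13.3 and 11.2 CPM in MPTP mice of the delayed arm (log2 fold change 0.29 ± 0.13, adjusted p = 0.593 by edgeR). In the pre-treatment arm it was at 7.055, 7.11 and 8.17 CPM in control mice and 6.29, 8.44 and 7.78 CPM in MPTP mice, which overlapped. Among the ligands, Csf1 was at 30.0, 32.6 and 30.5 CPM in control mice and 27.2, 28.0 and 25.3 CPM in MPTP mice of the pre-treatment arm, without overlap (log2 fold change -0.21 ± 0.08, adjusted p = 0.823 by edgeR).

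Cd52, a small surface glycoprotein of leukocytes in the phagocyte list, was at 1.12, 0.977 and 1.32 CPM in control mice and 1.69, 2.83 and 2.91 CPM in MPTP mice of the delayed arm (log2 fold change 1.12 ± 0.27, unadjusted p of 0.00164, adjusted p = 0.273 by edgeR). In the pre-treatment arm it was at 1.45, 1.93 and 1.57 CPM in control mice and 2.49, 1.99 and 1.35 CPM in MPTP mice, which overlapped. The irisin pre-treated mice had 1.22, 0.855 and 1.33 CPM of Cd52, all below the lowest MPTP mouse. In the activation list the antigen presentation genes H2-Aa and Cd74 had log2 fold changes of 0.64 ± 0.26 (SE) and 0.40 ± 0.18 for MPTP against control in the delayed arm (adjusted p = 0.541 and 0.593 by edgeR). In the pre-treatment arm control and MPTP mice overlapped for both genes. Their means there were 1.97 and 2.805 CPM for H2-Aa and 6.02 and 6.07 CPM for Cd74. Of the 12 genes of the activation list, 9 and 7 had enough counts to be tested in the 2 arms. In the delayed arm, Tnf, Ccl3 and Ccl4 had a count of 0 in all control mice. Tnf was also at 0 in all irisin mice and all delayed irisin mice, and Ccl4 in all delayed irisin mice. Ccl3 was at 0.098, 0.319 and 0 CPM in MPTP mice there, so these genes lay at or near the floor.

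Other macrophages and blood cells share some of the members, so their markers were read beside them. The 8 border macrophage markers summed to 12.4 to 17.6 CPM in control mice, 15.1 to 21.4 CPM in MPTP mice and 20.8 to 22.0 CPM in irisin pre-treated mice. Delayed arm sums were 26.0 to 31.8 CPM in control mice, 31.7 to 37.0 CPM in irisin mice, 28.8 to 34.9 CPM in MPTP mice and 20.99 to 35.4 CPM in delayed irisin mice. The 8 monocyte and neutrophil markers summed to at most 7.89 CPM and the 6 lymphocyte markers to at most 2.19 CPM in any mouse. Within the former, S100a9 of neutrophils was at 1.26, 2.62 and 1.67 CPM in control mice, 0.590, 0.740 and 0.551 CPM in MPTP mice and 1.72, 1.88 and 1.24 CPM in delayed irisin mice, with log2 fold changes of -1.56 ± 0.32 (SE) for MPTP against control and 1.36 ± 0.32 for delayed irisin against MPTP (adjusted p = 0.175 and 0.9995 by edgeR), which share the MPTP mice. By the same test 0 genes of the border macrophage, monocyte and neutrophil, lymphocyte, astrocyte, oligodendrocyte, neuron, dopaminergic neuron, endothelial and mural, and blood and choroid plexus lists passed in the 6 comparisons. Leaving out genes of the microglial lists, 61 and 64 of their 68 genes were tested. In each comparison except irisin pre-treatment against MPTP, 2 to 6 had an unadjusted p under 0.05. That was 3.12% to 9.84%, beside 3.9% to 8.97% of all tested genes. For irisin pre-treatment against MPTP, 12 (19.7%, beside 6.22% of all tested genes) did. Of these 12, the blood and choroid plexus list held 6 of its 7 genes, all lower, and the median of its log2 fold changes was -0.95. In the pre-treatment arm DESeq2 called Cldn5 (lower) for MPTP against control, and Cldn5 (higher) and Slc6a3 (lower) for irisin pre-treatment against MPTP. Slc6a3 was at 51.3, 65.5 and 52.1 CPM in MPTP mice and 28.3, 37.2 and 25.7 CPM in irisin pre-treated mice. In the delayed arm DESeq2 called S100a9 and Th for MPTP against control. It called 91, 169 and 178 genes of all kinds in these 3 comparisons. The part of these cells in the members' levels was not tested.

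In deviations from the group means, the 45 pairs of members had a median Pearson r of 0.36 over the 9 mice of the pre-treatment arm, with 38 pairs above 0, and of 0.04 over the 12 mice of the delayed arm, with 25 pairs above 0. The 3 pairs with the highest r, ranked by the lower of the 2 values, were Cd68 with C1qa (0.82 and 0.69), Csf1r with Tyrobp (0.67 and 0.63) and Cd68 with Tmem119 (0.63 and 0.69). Genes most like the mean standardized log2 CPM of the members were ranked over 21143 genes tested in both experiments, by the lower of the 2 values of r. They were Mrpl27 (0.79 and 0.76), Ciao2b (0.76 and 0.90), Psenen-ps (0.93 and 0.76), Eef1b2 (0.78 and 0.75), Rpl30 (0.84 and 0.74), Lxn (0.81 and 0.74), Serpinc1 (0.73 and 0.83), Timm50 (0.71 and 0.74), Ramp1 (0.85 and 0.70) and Gm22133 (0.89 and 0.70). The mice of an experiment share a table and its normalization, the ranking picks extremes out of many genes, and no test was made.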

How the data were processed

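Total RNA of dissected nigral tissue from 21 mice was sequenced on an Illumina NovaSeq instrument. The submitters' processing notes name HISAT, StringTie, edgeR and the build mm9, and the authors' methods name featureCounts for counting. Gene positions in the tables match GRCm38, not mm9: in GENCODE M21 all 10 members had at least 1 end of the gene at the same position and 6 had both. The use of strand is not given in the sources used here. The authors deposited the raw count and the FPKM of each gene in each mouse, one table per experiment, with columns of their own comparisons (fold changes and p-values) that were not used. Counts were the unit of all main tests, and FPKM was used for levels per length and in alternatives.

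Mice were grouped by the labels, and nothing else than separate labels says that the 3 mice of a group are independent animals. The main test was the two-sided quasi-likelihood test of edgeR 4.0.16 (R 4.3.3) after TMM scaling, on genes kept by filterByExpr (minimum count 10, minimum total 15), with all groups of an experiment in 1 fit, and p-values were adjusted by Benjamini-Hochberg over all tested genes. CPM uses TMM library sizes. A standard error is the size of the log2 fold change over the square root of F, and intervals are 95%. The fit was tested on simulated counts. No 2 mice of a group differed by less than the sampling noise (smallest chi-square per gene 39.8 over 21 pairs). Same-numbered mice were not treated as paired in the main test, and their deviations correlated from -0.078 to 0.101 over all tested genes. Alternatives were other scaling, no filter, DESeq2 1.42.0, limma 3.58.1 on log2(FPKM + 1) and log2(FPKM + 0.1), pairwise fits, the replicate number as a block, and leaving out each mouse. An exact permutation test of 3 mice against 3 cannot go below p = 0.1 and was not used. The members, lists and tests were chosen with earlier results of these data known. All 10 members are named. From each other list the genes past the threshold were eligible, or up to 4 with the smallest p. The text describes only some of those with an unadjusted p under 0.05. It also describes Cx3cl1, Apoe, Tnf, Ccl3 and Ccl4, which were chosen after their values were seen. Other genes with an unadjusted p under 0.05, among them genes of the transcription factor list, are not described. One list gene is not reported here.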

Additional observations from a re-analysis of the deposited data

How the results depend on the processing

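With 3 mice a group, a p that missed the threshold does not show that groups were alike. Aif1, with 123 to 260 counts per mouse, had the fewest counts of the members. The number of members past the adjusted threshold stayed at 0 under all alternatives run except DESeq2, which called 1 (Cx3cr1) for MPTP against control in the pre-treatment arm and 2 (Cx3cr1 and Itgam) for any difference among its groups. The cause of the difference between the tools was not tested. DESeq2 also called more genes of all kinds: 91 against 5 by edgeR for MPTP against control in the pre-treatment arm, 169 against 16 for irisin pre-treatment against MPTP, 178 against 29, 144 against 24 and 34 against 1 for MPTP against control, irisin against control and delayed irisin against MPTP in the delayed arm, 62 against 9 for the interaction, and 292 against 21 and 261 against 22 for any difference. By limma on log2(FPKM + 1) the interaction had 3 genes. With only the compared groups in the fit, genes numbered 10, 10, 14 and 9 for MPTP against control in the pre-treatment and the delayed arm, irisin against control and delayed irisin against MPTP. Without a filter, delayed irisin against MPTP had 2 genes. Without 1 mouse, genes of all kinds ranged from 7 to 17, 10 to 26, 16 to 35, 16 to 29, 1 to 7 and 7 to 19 in the 6 comparisons and from 15 to 32 and 16 to 28 for any difference.

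Fitting the replicate number as a replicate block left 0 members past the threshold in each comparison, and genes of all kinds numbered 2, 8, 17, 14, 1 and 7, and 11 and 20 for any difference. Cx3cr1 for delayed irisin against MPTP turned from -0.15 to 0.35 under the block. The labels do not say what the replicate numbers stand for. The correlations of same-numbered mice were taken over all tested genes, and whether such mice share a batch was not tested.

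Of 950 log2 fold changes of members under an alternative, 894 kept their direction and their side of the threshold, 1 passed it (Cx3cr1 by DESeq2) and 55 changed sign, none of them past the threshold. For MPTP against control in the delayed arm, Cd68 turned to 0.00303 without TMM, and Tyrobp to 0.027 without TMM, 0.00933 without a filter, 0.00489 by DESeq2, and 0.00970 and 0.00986 by limma on log2(FPKM + 1) and log2(FPKM + 0.1). For irisin against control, Csf1r turned to 0.00036 with median ratio factors, 0.012 without TMM, 0.0014 without a filter, 0.00275 by DESeq2, and 0.00710 and 0.00771 by limma. For delayed irisin against MPTP, Tmem119 turned to -0.00312 without TMM and -0.00778 without a filter. Besides Cx3cr1 under the block, the other changes of sign came from leaving out 1 mouse. For MPTP against control in the pre-treatment arm the ranges were then -0.0369 to 0.13 (Aif1), -0.11 to 0.0319 (Csf1r), -0.10 to 0.22 (Tyrobp) and -0.086 to 0.18 (C1qa), and for irisin pre-treatment against MPTP -0.0058 to 0.36 (Trem2) and -0.14 to 0.11 (Itgam). MPTP against control in the delayed arm gave -0.13 to 0.15 (Cd68), -0.0143 to 0.0634 (Csf1r), -0.11 to 0.10 (Tyrobp), -0.0872 to 0.46 (Itgam), -0.14 to 0.0190 (C1qa) and -0.10 to 0.0529 (Tmem119), and irisin against control gave -0.14 to 0.20 (Aif1), -0.0366 to 0.0411 (Csf1r), -0.0676 to 0.0861 (Tyrobp) and -0.16 (without irisin replicate 3) to 2.15 (Cx3cr1). Delayed irisin against MPTP gave -0.27 to 0.0083 (Cd68), -0.0176 to 0.0192 (P2ry12), -0.0578 to 0.11 (C1qa), -2.02 (without delayed irisin replicate 1) to 1.42 (without MPTP replicate 3; Cx3cr1) and -0.0564 to 0.0495 (Tmem119), and the interaction gave -3.73 (without delayed irisin replicate 1) to 0.00658 (without irisin replicate 3; Cx3cr1). Joining the counts of Itgam and Gm49368, chosen after seeing the data, moved no member past the threshold. Without Cx3cr1 and Itgam, also chosen after seeing the data, the medians of the remaining 8 members were -0.02 and -0.10 for the comparisons of the pre-treatment arm and -0.02, -0.04, -0.08 and 0.0065 for those of the delayed arm, and 8 of the 10 genes most like the members remained.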
